A study of Mus musculus with 4 samples.

Results

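The mRNAs of 10 genes of Toll-like receptor signalling were followed in cultured mouse cells: the receptor genes Tlr1, Tlr2, Tlr3, Tlr4, Tlr6, Tlr7 and Tlr9, the adaptor genes Myd88 and Ticam1, and Traf6. They were taken by gene symbol from a table of 55359 genes, and each symbol matched a single row. The series concerns celastrol, a plant triterpenoid, in female germline stem cells from mouse ovary, and its design text mentions triplicate treated and control cultures at 12 h. The samples listed are 4 poly(A) libraries, numbered 01, 02, 21 and 22 in their titles, whose labels share tissue (ovary), strain entry (FGSCs), stage entry (Female mice) and medium, and name no treatment. No library could therefore be placed in a treated or a control group. Values are given per library in the order 01, 02, 21 and 22, and no test between conditions was made.

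Toll-like receptors are membrane proteins that recognise molecules of microbes or of damaged cells. TLR1, TLR2, TLR4 and TLR6 work at the cell surface, where TLR2 pairs with TLR1 or TLR6 to bind lipopeptides and TLR4 senses lipopolysaccharide. TLR3, TLR7 and TLR9 sense nucleic acids in endosomes. All of these receptors except TLR3 signal through the adaptor MyD88, while TLR3 and, from endosomes, TLR4 use the adaptor TRIF, the product of Ticam1. The ubiquitin ligase TRAF6 passes both kinds of signal on to NF-kB and MAP kinases, and the TRIF branch also activates IRF3.

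The sequence shown first is the longest stretch that the Tlr1 and Tlr6 mRNAs share, because it limits how far the reads of these genes can be told apart. It is 229 identical bases in the GENCODE M21 transcripts of GRCm38, in lower case throughout, from the minus strand of chromosome 5. It covers positions 1468 to 1696 of the 2388 coding bases of Tlr1 and positions 1507 to 1735 of the 2421 coding bases of Tlr6, counted from the first base of the start codon with the stop codon included.
Tlr1 and Tlr6 shared run: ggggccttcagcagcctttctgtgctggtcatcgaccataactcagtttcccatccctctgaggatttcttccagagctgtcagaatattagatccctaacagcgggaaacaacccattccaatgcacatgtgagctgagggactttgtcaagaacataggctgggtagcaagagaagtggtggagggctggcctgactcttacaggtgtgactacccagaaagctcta
Of all 100-base stretches, 92.1% of those in Tlr1 and 92.9% of those in Tlr6 occurred in the transcripts of no other gene. The stretches that were not unique were shared between these genes only. In the other 8 members every stretch was unique. Reads from the shared part can be given to either gene or dropped, and the read counter is not given in the sources used here.

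Promoter windows, from 250 bases before to 50 bases after a RefSeq transcription start on GRCm38.p6, were listed for 8 of the 10 members, all but Tlr4 and Tlr7. They were searched on both strands for motifs of factors that the pathway activates. The NF-kB motif is the kappaB consensus, the interferon-stimulated response element (ISRE) was searched as GAAA, then NN, then GAAA again, and the AP-1 motif TGANTCA. The kappaB consensus was found in 2 of 10 member windows, those of Tlr2 and Tlr3, against 4.51% of 32851 windows of all genes. The ISRE was found in 2 of 10, those of Myd88 and Tlr6, against 3.44%, and the AP-1 motif in 1 of 10, that of Tlr9, against 7.81%. The windows with a kappaB or ISRE match are printed 5′ to 3′ with the match in capitals. They are a description of the letters and show no binding.
Tlr2, chr3:83841559-83841858, minus strand, kappaB in capitals: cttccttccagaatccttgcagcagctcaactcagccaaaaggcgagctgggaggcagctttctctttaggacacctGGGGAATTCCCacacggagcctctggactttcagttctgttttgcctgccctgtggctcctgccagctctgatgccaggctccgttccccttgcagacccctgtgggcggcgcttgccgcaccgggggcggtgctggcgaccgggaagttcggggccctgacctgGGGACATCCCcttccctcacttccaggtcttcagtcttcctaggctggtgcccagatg
Tlr3, chr8:45410331-45410630, minus strand, kappaB in capitals: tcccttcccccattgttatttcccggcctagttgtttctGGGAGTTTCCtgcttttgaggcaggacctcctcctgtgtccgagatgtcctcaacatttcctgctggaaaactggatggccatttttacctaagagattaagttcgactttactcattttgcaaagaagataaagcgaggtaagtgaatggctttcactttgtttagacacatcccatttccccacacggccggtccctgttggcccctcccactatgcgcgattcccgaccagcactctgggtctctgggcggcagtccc
Tlr6, chr5:64959117-64959416, minus strand, ISRE in capitals: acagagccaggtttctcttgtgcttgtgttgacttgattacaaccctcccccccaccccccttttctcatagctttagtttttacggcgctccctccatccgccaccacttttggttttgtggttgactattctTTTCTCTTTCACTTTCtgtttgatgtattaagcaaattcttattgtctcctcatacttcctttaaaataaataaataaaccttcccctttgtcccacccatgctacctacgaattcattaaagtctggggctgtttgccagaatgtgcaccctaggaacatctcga
Myd88, chr9:119339969-119340268, minus strand, ISRE in capitals: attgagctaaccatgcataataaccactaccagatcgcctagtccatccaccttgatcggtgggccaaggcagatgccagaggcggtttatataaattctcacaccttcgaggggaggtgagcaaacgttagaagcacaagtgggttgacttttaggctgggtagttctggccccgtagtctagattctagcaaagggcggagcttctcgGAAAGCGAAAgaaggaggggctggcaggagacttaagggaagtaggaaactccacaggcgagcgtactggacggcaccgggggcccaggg
The Tlr2 window held 3 kappaB matches, a pair of which overlap each other. The capitals in Tlr6 cover 2 overlapping ISRE matches. Tlr6 has another listed start, whose window held none of these motifs.

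Levels are the authors' FPKM, which scales counts to the exonic length of the gene and the depth of the library. Orders and ratios between genes depend on that deposited length, which need not be the length of the transcripts present. Traf6, for example, had the most counts of the members (2731) but also the longest exonic size (7883 bases). The intervals given below hold no error of the length. A gene at 1 FPKM or more was called detected. Of the 10 members, 5 were detected in every library, which was the case for 20.1% of all genes. These were Myd88, Ticam1, Traf6, Tlr4 and Tlr6. Tlr2 reached the threshold in library 22 alone. The other 4, Tlr1, Tlr3, Tlr7 and Tlr9, were under 1 FPKM in every library, although each had at least 1 count in each of them, as did 29.2% of all genes. The libraries held between 12339636 and 13039541 counts. Intervals are exact Poisson 95% intervals of the count converted to FPKM. They and the floor of 3 counts cover counting error only, and no variation between cultures or library preparations. PCR copies are not independent molecules, so the intervals can be too narrow for counting error as well.

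**Figure D1:**
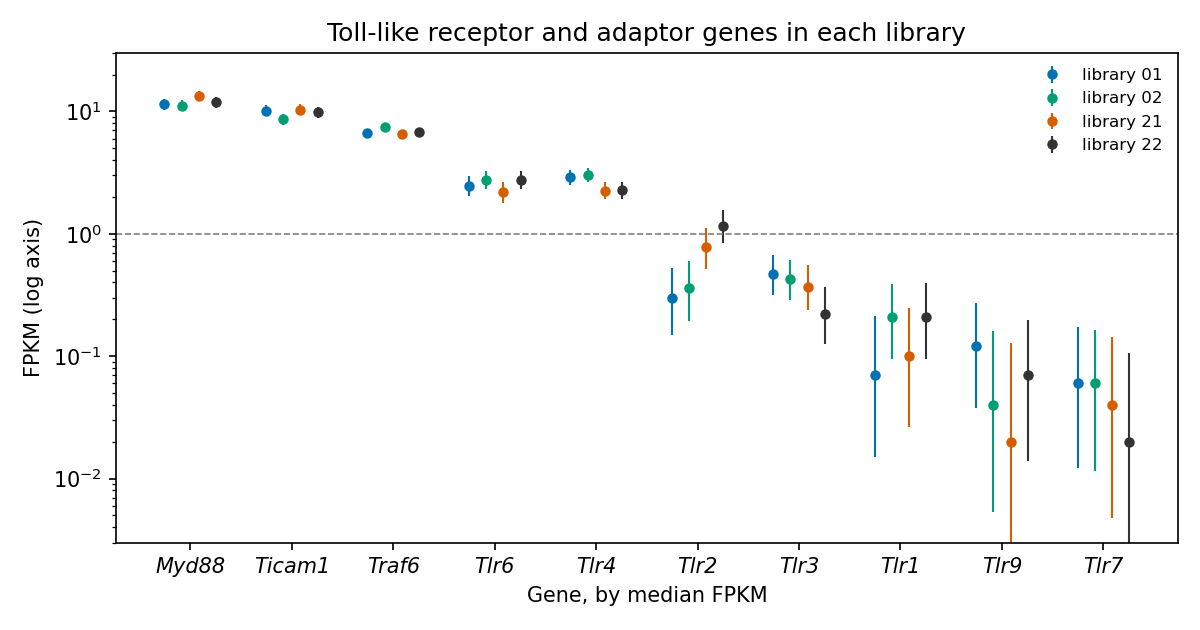
FPKM (log axis) of the 10 genes in each library, with genes ordered by median. Points are the deposited values, bars are exact Poisson 95% intervals and the dashed line is the detection threshold of 1 FPKM. The adaptor genes and Traf6 lie above all receptor genes, and Tlr2 spans 0.30 to 1.16 FPKM.

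The genes of the shared signalling proteins were the highest of the members. Myd88 (ENSMUSG00000032508, chromosome 9, 119165000 to 119170477 on the minus strand, coordinates as deposited, without a stated build) stood at 11.4, 11.2, 13.4 and 11.9 FPKM, from 363, 375, 429 and 394 counts. The intervals of the lowest library, 02 (10.1 to 12.4 FPKM), and the highest, 21 (12.2 to 14.8 FPKM), overlapped. In the deposited coordinates 1736 bases of Myd88 overlap Acaa1a on the opposite strand, which had 333 to 363 counts. No step that keeps the strand is named, so reads from the overlap cannot be told apart. Slc22a14, listed over the whole of Myd88 on its own strand, had no count in any library. The deposited coordinates differ from those of GRCm38.p6, on which the promoter window of Myd88 is 119339969 to 119340268. Positions of genes and windows can therefore not be compared here.

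Ticam1 (ENSMUSG00000047123, chromosome 17, 56576319 to 56583786, minus strand) followed at 10.2, 8.64, 10.3 and 9.81 FPKM, from 375, 337, 382 and 377 counts. Library 02 was the lowest and the other libraries lay close together, and the intervals of the lowest and highest libraries overlapped. Traf6 (ENSMUSG00000027164, chromosome 2, 101508774 to 101532014, plus strand) stood at 6.61, 7.44, 6.56 and 6.73 FPKM, from 643, 765, 641 and 682 counts. Library 02 was its highest, again with overlapping intervals. These 3 genes were higher than 60.6% (Myd88), 55.7% (Ticam1) and 43.1% (Traf6) of genes with a median of 1 FPKM or more.

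Both adaptor genes kept a similar ratio over the libraries. Within a library the FPKM of Myd88 was 1.12, 1.29, 1.30 and 1.21 times that of Ticam1, with exact binomial 95% intervals that all overlapped, the lowest bound being 0.971 and the highest 1.5. Traf6 was 0.651, 0.862, 0.637 and 0.687 times Ticam1. The ratio of library 02 (0.757 to 0.982) lay above the intervals of library 01 (0.572 to 0.741) and library 21 (0.560 to 0.725), and overlapped that of library 22 (0.605 to 0.781).

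Among the receptor genes, Tlr4 and Tlr6 were detected in every library at similar levels. Tlr4, the lipopolysaccharide receptor gene (ENSMUSG00000039005, chromosome 4, 66745821 to 66848521, plus strand), stood at 2.90, 3.05, 2.25 and 2.27 FPKM, from 199, 221, 155 and 162 counts. Libraries 01 and 02 were higher than 21 and 22, and the widest gap between the ordered values lay between these pairs, as it did in 33.4% of genes averaging at least 1 FPKM. The interval of library 02 (2.66 to 3.48 FPKM) lay just above that of library 21 (1.91 to 2.64 FPKM). The highest value was 1.36 times the lowest. Without library 02 the intervals overlapped, with a lower bound of 2.51 FPKM in the highest remaining library against an upper bound of 2.64 FPKM in the lowest, and with library sizes scaled by the trimmed mean of M-values (TMM) they overlapped too.

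Tlr6, which encodes a partner of TLR2 (ENSMUSG00000051498, chromosome 5, 65109374 to 65117440, minus strand), stood at 2.48, 2.76, 2.19 and 2.76 FPKM, from 114, 134, 101 and 132 counts. Library 21 was the lowest, and the intervals of lowest and highest overlapped. Its neighbour Tlr1, which encodes the other partner of TLR2 (ENSMUSG00000044827, chromosome 5, 65082022 to 65090906, minus strand), had 3, 9, 4 and 9 counts, or 0.07, 0.21, 0.10 and 0.21 FPKM. The genes lie 18467 bases apart with no gene listed between them. Tlr6 was 34.1, 13.4, 22.7 and 13.2 times Tlr1, with intervals that overlapped in all 4 libraries and a lowest bound of 6.73. As described above, reads in the shared run may have been given to either gene.

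Tlr2, the gene of the common subunit of both lipopeptide receptors (ENSMUSG00000027995, chromosome 3, 83743579 to 83749074, minus strand), had the widest difference of the members on the log2(FPKM + 1) scale, 0.73. It stood at 0.30, 0.36, 0.78 and 1.16 FPKM, from 11, 14, 29 and 45 counts. Libraries 21 and 22 were higher than 01 and 02. The interval of library 22 (0.847 to 1.56 FPKM) lay above that of library 01 (0.148 to 0.529 FPKM), which was the case between the extreme libraries for 23.0% of genes averaging 0.5 to under 1 FPKM. The ratio of library 22 to library 01 was 3.93, with an exact binomial 95% interval of 2.00 to 8.42. These libraries were picked as the highest and lowest, and the interval does not allow for that choice. Without library 22 the intervals of the lowest and highest remaining libraries overlapped (lower bound 0.520 FPKM, upper bound 0.529 FPKM).

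The ratios of Tlr6 and Tlr4 to Tlr2 share the low counts of Tlr2 (11, 14, 29 and 45) as denominator. They are therefore not independent of the difference in Tlr2 given above. No share over all gene pairs was computed for these or the other ratios given here. Tlr6 was 8.38 times Tlr2 in library 01 (4.51 to 17.3) and 7.74 times in library 02 (4.46 to 14.5). It was 2.82 times Tlr2 in library 21 (1.85 to 4.42) and 2.37 times in library 22 (1.68 to 3.41). The intervals of 21 and 22 lay below those of 01 and 02. Tlr4 was 9.81, 8.56, 2.90 and 1.95 times Tlr2, and there too the upper bounds of library 21 (4.47) and library 22 (2.78) lay below the lower bounds of library 01 (5.37) and library 02 (4.997). The ratio of Tlr4 to Tlr6 was 1.17, 1.11, 1.03 and 0.823, with overlapping intervals.

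**Figure D2:**
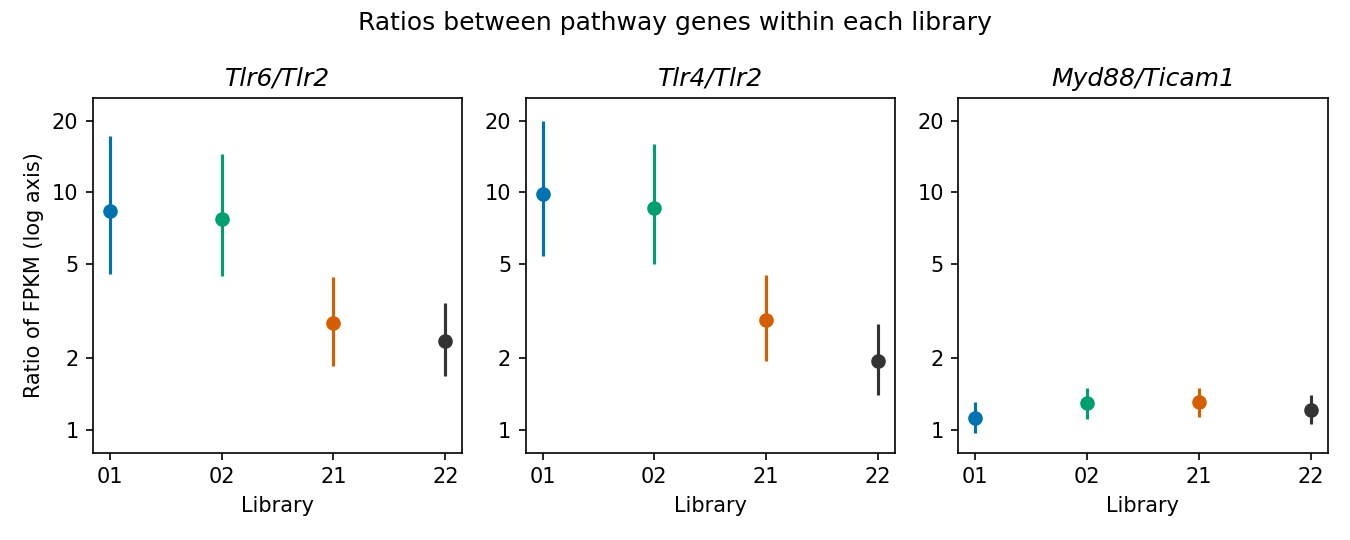
Ratio of FPKM (log axis) between pairs of genes within each library, with exact binomial 95% intervals as bars. Tlr6/Tlr2 and Tlr4/Tlr2, which share the counts of Tlr2, are 8.38 and 9.81 in library 01 and 2.37 and 1.95 in library 22. Myd88/Ticam1 stays between 1.12 and 1.30.

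The genes of the nucleic acid receptors were all under 1 FPKM, and those of Tlr7 and Tlr9 were near the floor of 3 counts. Tlr3, for double-stranded RNA (ENSMUSG00000031639, chromosome 8, 45848702 to 45864117, minus strand), had 30, 29, 24 and 15 counts, or 0.47, 0.43, 0.37 and 0.22 FPKM. Library 22 was the lowest, and its interval (0.125 to 0.370 FPKM) overlapped that of library 01 (0.315 to 0.667 FPKM). Tlr9, for CpG DNA (ENSMUSG00000045322, chromosome 9, 106099797 to 106104082, plus strand), had 5, 2, 1 and 3 counts, or at most 0.12 FPKM. Tlr7, for single-stranded RNA (ENSMUSG00000044583, chromosome X, 166087925 to 166113554, minus strand), had 3, 3, 2 and 1 counts, or at most 0.06 FPKM. For Tlr7 and Tlr9 the floor of 3 counts equals up to 0.0596 and 0.0699 FPKM, so no order of the libraries can be read from them.

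In the order of median levels, Myd88 (11.7 FPKM), Ticam1 (9.99) and Traf6 (6.67) were followed by Tlr6 (2.62), Tlr4 (2.59), Tlr2 (0.57), Tlr3 (0.40), Tlr1 (0.155), Tlr9 (0.055) and Tlr7 (0.05). The ranges over the libraries overlapped between Tlr6 and Tlr4, Tlr2 and Tlr3, Tlr1 and Tlr9, and Tlr9 and Tlr7. Between Tlr3 and Tlr1 the ranges did not overlap (0.22 FPKM at the lowest of Tlr3 and 0.21 at the highest of Tlr1), but the counting intervals were apart in only 1 of 4 libraries. Traf6 was above Tlr6, and Tlr4 above Tlr2, with intervals apart in all 4 libraries. Myd88 and Ticam1 were apart in 2 libraries, and Ticam1 and Traf6 in 3.

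The spread of a gene was measured as its log2 range, the difference between its maximum and minimum log2(FPKM + 1) among the libraries, for genes averaging at least 1 FPKM. The 5 members that passed this filter had log2 ranges of 0.16 (Traf6), 0.23 (Ticam1), 0.24 (Tlr6), 0.25 (Myd88) and 0.32 (Tlr4). Their median was 0.24, and that of all 11874 genes that passed was 0.27. Without library 21 the median of the members was 0.15. Leaving out a library can only lower the range of a gene or keep it. The median of all genes with a library left out was not computed, so 0.15 cannot be set beside 0.27. Tlr4 was the only 1 of these 5 whose lowest and highest libraries had non-overlapping intervals, which was the case for 56.9% of the 11874 genes and for 52.6% of genes averaging 2 to under 15 FPKM. The ranges of Ticam1 and Traf6 rested on library 02, without which they were 0.07 and 0.03. Those of Myd88 and Tlr6 rested on library 21, without which they were 0.09 and 0.11.

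Genes with a pattern close to that of Tlr4 were looked for on the log2(FPKM + 1) scale. Among 7731 genes averaging at least 5 FPKM, the smallest root mean square differences from the centred log2(FPKM + 1) values of Tlr4 over the 4 libraries were those of Septin9 (0.0064), Igf2bp2 (0.0073) and Tpst1 (0.0076). In all, 336 of these 7731 genes lay within 0.05 of Tlr4 and 1492 within 0.1. The counting interval of the log2 range of Tlr4 was 0.01 to 0.62, far wider than the differences of the named genes. Their rank among these many genes is therefore not resolved by the counts. The pseudocount of 1 FPKM compresses Tlr4 (0.32 with it, 0.44 without) more than these higher genes. The likeness was measured on this scale only. No other member reached the log2 range of 0.3 and the mean of 1 FPKM required for this search.

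Of the mouse receptor genes outside the members, Tlr12 was the highest receptor gene in libraries 21 and 22. Its product recognises profilin of protozoan parasites. Tlr12 (ENSMUSG00000062545, chromosome 4, 128509236 to 128512412, minus strand) stood at 2.40, 2.29, 5.49 and 4.95 FPKM, from 94, 95, 216 and 202 counts, with a log2 range of 0.98. Libraries 21 and 22 were higher than 01 and 02, and the ratio of library 21 to library 02 was 2.39 (1.87 to 3.08). This pair too was picked as the highest and lowest, which the interval does not allow for. Tlr5, Tlr8 and Tlr11 had no count in any library, where 3 counts equal up to 0.0468, 0.0678 and 0.0743 FPKM, and Tlr13 had at most 3 counts in a library. Summed over the 12 Toll-like receptor genes, the level was 8.84, 9.25, 11.2 and 11.7 FPKM. Tlr12 made up 27.1%, 24.8%, 48.8% and 42.3% of it and Tlr4 between 19.4% in library 22 and 32.97% in library 02. The 7 receptor genes among the members summed to 6.40, 6.91, 5.75 and 6.71 FPKM.

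**Figure D3:**
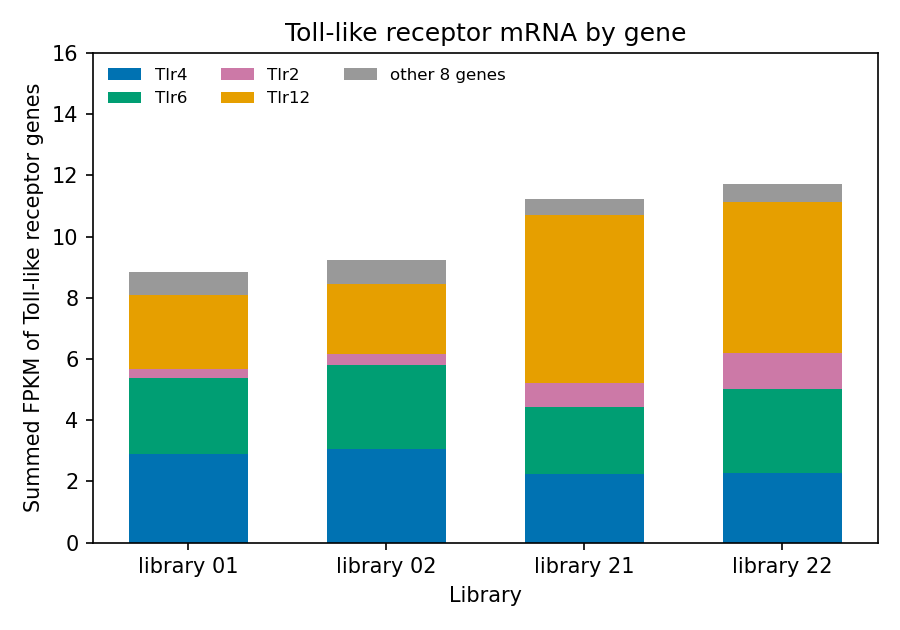
Summed FPKM of the 12 mouse Toll-like receptor genes in each library, stacked by gene. Tlr12 makes up 27.1% of the sum in library 01 and 48.8% in library 21, while the sum of Tlr4 and Tlr6 is lowest in library 21.

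The genes that serve the receptors were present at very different levels. Of 6 genes of co-receptors and ligand binding, 2 were detected in every library. Cd14, which hands lipopolysaccharide to TLR4, stood at 2.85, 2.57, 1.96 and 1.98 FPKM, and Tlr4 was 1.02, 1.19, 1.15 and 1.15 times its level, with overlapping intervals. Ly96, whose product MD-2 binds lipopolysaccharide beside TLR4, stood at 1.59, 1.5, 2.13 and 2.82 FPKM. Tlr4 was 1.83, 2.03, 1.05 and 0.805 times Ly96, and the interval of library 22 (0.560 to 1.18) lay below that of library 02 (1.28 to 3.39). Cd180 was at 0.38 to 0.66 FPKM, and Lbp, Cd36 and Ly86 at no more than 0.08 FPKM in any library. Of 9 genes of receptor folding, trafficking and processing, 8 were detected in every library. They were led by the chaperone gene Hsp90b1 (355.6 to 420.6 FPKM), Ctsl (99.9 to 192 FPKM) and Ctsb (64.2 to 86.7 FPKM), with the widest log2 range, 0.94, in Ctsl. Unc93b1, which carries endosomal receptors to their compartment, stood at 7.78, 7.03, 4.18 and 5.19 FPKM and was named after its values were seen.

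The further steps of the pathway were mostly detected. Among 4 other adaptor genes, Pik3ap1 (17.7 to 21.1 FPKM) and Tirap (3.57 to 3.78 FPKM) were detected in every library, and Sarm1 and Ticam2 were not (Ticam2 was named after its values were seen). Tirap, which links MyD88 to TLR2 and TLR4, had a log2 range of 0.06. Ticam2, which links TRIF to TLR4, had 24, 32, 11 and 14 counts. All 18 genes of kinases and ubiquitin enzymes were detected in every library, with a median log2 range of 0.22. Tab2 (29.2 to 32.6 FPKM), Irak1 (22.0 to 27.2 FPKM) and Chuk (20.4 to 23.6 FPKM) were the highest. Irak4, the first kinase that MyD88 recruits, stood at 3.76, 3.47, 2.28 and 2.34 FPKM, the widest log2 range among them (0.54). Of 8 transcription factor genes, 6 were detected in every library, led by Jun (31.8 to 37.8 FPKM), Nfkb1 (23.2 to 30.4 FPKM) and Irf3, and the median log2 range was 0.24. Of 10 negative regulators, 9 were detected in every library, with a median log2 range of 0.34. Il1rl1, Nfkbia and Inpp5d led that list, and the widest range was that of Nfkbia, 1.15. Of 5 genes listed here as other receptors that use MyD88, 3 were detected in every library. Among these 5, Il18rap (38.4 to 41.6 FPKM), Il1r1 (4.05 to 5.15 FPKM) and Il18r1 (2.00 to 2.58 FPKM) were the highest. Il1rl1 (50.3 to 63.9 FPKM) was listed with the negative regulators and not here.

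Genes that the pathway is known to induce had the widest median log2 range of the 8 pathway lists with more than 1 gene over the filter. Of 18, 7 were detected in every library, and the 9 averaging at least 1 FPKM had a median log2 range of 0.73. All 9 had non-overlapping intervals between their lowest and highest libraries, against 56.9% of all genes averaging at least 1 FPKM. So had 8 of 9 negative regulators, 13 of 18 kinases and ubiquitin enzymes and 6 of 8 folding and processing genes over that mean. For transcription factors it was 4 of 7, other MyD88 receptors 3 of 4, other adaptors 1 of 2 and co-receptors 0 of 2. The list was chosen with earlier results known, and Cxcl10 (0.94, 0.95, 2.44 and 2.63 FPKM) passed the mean through libraries 21 and 22. The count is therefore no test. The 9 target genes did not share a direction. Cxcl1, a chemokine gene, stood at 16.9, 17.3, 35.0 and 33.95 FPKM. The widest log2 range, 1.61, was that of Nos2, the inducible nitric oxide synthase gene, at 0.89, 1.52, 4.02 and 4.75 FPKM. Libraries 21 and 22 were the higher in both genes. In contrast, Tnf stood at 2.77, 2.25, 1.28 and 1.8 FPKM and Il6 at 11.4, 11.4, 8.28 and 9.29 FPKM, with 01 and 02 the higher. Nos2, Tnf and Il6 were named after their values were seen. Ptgs2, the highest gene of the list, had a log2 range of 0.16, and Ccl2 and Ccl5 had 0.50 and 1.06. Il12b had no count, and Il1b, Il10 and Ifnb1 had 1 count each over the 4 libraries.

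**Figure D4:**
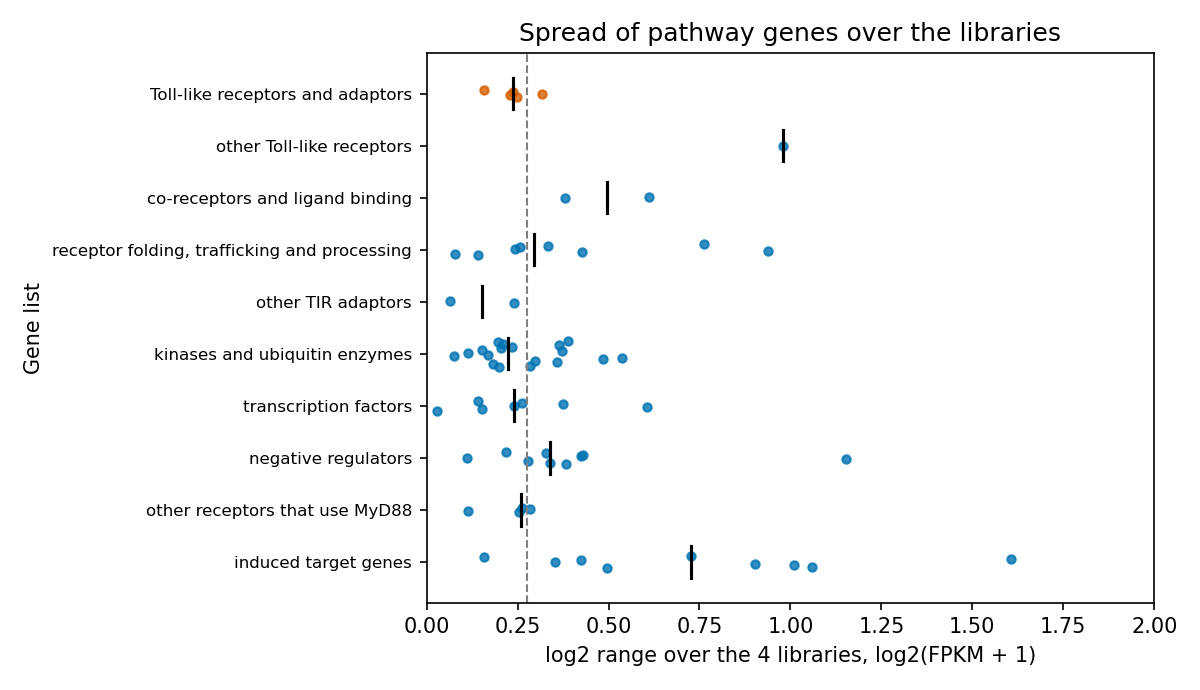
Log2 range of log2(FPKM + 1) over the 4 libraries for the genes of each list averaging at least 1 FPKM (points), with list medians as black bars and the median of all such genes, 0.27, as a dashed line. The members span 0.16 to 0.32, and the induced target genes reach 1.61.

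The deposited table itself places 106 genes, all 10 members among them, in the KEGG Toll-like receptor pathway. Of these, 64 were detected in every library, and the 66 averaging at least 1 FPKM had a median log2 range of 0.25. Of the 96 that are not members, 59 were detected in every library, and the 61 averaging at least 1 FPKM had a median log2 range of 0.28. This annotation was chosen as a list after gene values had been seen.

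The labelled cell type and others that the culture could hold were checked by marker lists of 10 genes each. None of the germ cell markers was detected in any library, 5 of them had no count, and the list summed to between 0.07 and 0.49 FPKM per library. Macrophage markers were detected in every library for 4 of 10 genes, Adgre1, Cd68, Fcgr1 and Ptprc, and summed to 276, 280, 132 and 132 FPKM, while Csf1r had at most 11 counts and Itgam 1 count in all. Mast cell markers were detected for 4 of 10, Cpa3, Gata2, Kit and Il1rl1, and summed to 625, 619, 512 and 535 FPKM, with Fcer1a, Mcpt4 and Tpsb2 at 0. Fibroblast markers were detected for 8 of 10 and summed to between 501 and 562 FPKM. Vim (296 to 341 FPKM) and Fn1 (119 to 140 FPKM) made up most of this, while Pdgfrb stood at 0.53 to 0.88 FPKM and Lum had 2 counts in all. Granulosa cell markers and those of B cells and plasmacytoid dendritic cells were each detected for 1 of 10, Kitl and Bst2, with Foxl2, Fshr, Ms4a1 and Siglech at 0. The macrophage sum was lower in libraries 21 and 22, as was Tlr4, while Tlr2 and Tlr12 were higher there. Most of that sum was Adgre1 (218, 220.5, 97.7 and 96.2 FPKM). Cd68 (25.3, 25.5, 11.7 and 13.25 FPKM) and Fcgr1 (20.9, 21.0, 9.70 and 8.96 FPKM) were lower in libraries 21 and 22 as well. The macrophage list did not move as a whole. Ptprc stood at 10.2, 11.2, 10.4 and 11.3 FPKM. Lyz2, near the threshold and with overlapping intervals, stood at 0.62, 0.47, 1.23 and 1.06 FPKM. Within the mast cell list, Cpa3 and Gata2 were lower in libraries 21 and 22, and Kit was higher there (58.9, 64.6, 100.7 and 100.2 FPKM). The part of these cell types in the levels of the receptor genes was not tested, and in bulk RNA fewer cells of a type and less RNA per cell cannot be told apart.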

How the data were processed

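Poly(A) RNA of 4 libraries was sequenced as paired-end reads. The deposited table gives raw counts per gene, whole numbers with unequal library totals, and the authors' FPKM, per the file headers and the values. Count divided by exonic size in kilobases and by FPKM returned the library total within 0.0496% above 10 FPKM. The submitters' processing notes list FastQC, HISAT2 and DESeq2 without a role. For the read counter, genome build and annotation: not given in the sources used here.

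The labels give no library a condition, so no group, test or p-value was made. Computed here were exact Poisson 95% intervals of counts, exact binomial intervals of ratios, log2 ranges with a pseudocount of 1 FPKM, and the share of 100-base stretches of GENCODE M21 transcripts unique to a gene (Python 3.11.15, scipy 1.17.1). The log2 range and Poisson interval calculations were run on counts simulated with Poisson error only, the error that these intervals assume. That run covered neither PCR copies, variation between cultures nor the binomial intervals of ratios. Promoter windows came from RefSeq, GRCm38.p6. Alternatives were other thresholds, pseudocounts and filters, 3 scalings (one with TMM from edgeR 4.0.16) and leaving out each library.

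The members and the 9 pathway lists (83 symbols, all found) were chosen with earlier results of these data known. The text names all members, and of each pathway list up to 3 genes with the highest median and the detected gene with the widest range. Other named genes were picked with their values in view.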

Additional observations from a re-analysis of the deposited data

How the results depend on the processing

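The 5 members detected in every library were 5 at thresholds of 0.5 and 2 FPKM, under TMM, median-of-ratios size factors or a common FPKM sum, and without any single library. The median log2 range of the detected members, 0.24, was 0.27 with a pseudocount of 0.1 FPKM, 0.23 both without a filter and with a filter at 5 FPKM, 0.22 to 0.24 under the 3 scalings, and 0.15 to 0.24 when each library was left out in turn. The count of members over 1 FPKM with non-overlapping intervals, 1 (Tlr4), was 1 under the common sum and the median-of-ratios scaling and 0 with TMM, which moves the bounds of libraries 02 and 21 to 2.643 and 2.645 FPKM. It was 0 to 1 when each library was left out. Of 80 alternative log2 ranges of single members, 75 lay inside the counting interval of the reported range. Most of them could hardly fall outside. Leaving out a library cannot widen a range, the interval of most members starts at 0, and the scalings moved log2 FPKM by at most 0.018. The count of 75 is therefore no test of robustness. The 5 ranges outside the interval were those with a pseudocount of 0.1 FPKM for genes averaging under 1 FPKM. They were Tlr1 (0.87), Tlr2 (1.66), Tlr3 (0.83), Tlr7 (0.42) and Tlr9 (0.87), since the pseudocount of 1 FPKM compresses low values. No paired analysis was possible because the labels give the libraries no groups. Depth limits Tlr1, Tlr7 and Tlr9 most, with 25, 9 and 11 counts over all libraries.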

Other observations

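In some genes the 4 libraries fell into pairs. The widest gap between the ordered log2(FPKM + 1) values parted libraries 01 and 02 from 21 and 22 in 33.4% of the 11874 genes averaging at least 1 FPKM. It did so in 1 of the 5 members over that mean, Tlr4, with 2.90 and 3.05 FPKM in libraries 01 and 02 and 2.25 and 2.27 FPKM in libraries 21 and 22. Among the 60 genes of the pathway lists over that mean it did so in 29, of which 14 were lower in libraries 01 and 02 and 15 lower in 21 and 22. The labels do not say whether these pairs are conditions, batches or cultures, and this split was looked for after the values were seen.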
